A study of Mus musculus with 3 samples.

Results

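The 41 genes described here encode the extracellular and membrane parts of Wnt signalling, with a pair of nuclear or feedback genes beside them. They were chosen by name rather than by a cut on their measured values, though with earlier results of these data known. They comprise 17 Wnt ligands, 10 Frizzled receptors, the 2 co-receptors Lrp5 and Lrp6, 10 secreted inhibitors, and Axin2 and Lef1. The arrays named 16531 genes, 40 of the 41 among them, and 35 of the 41 were bright enough to be tested. Wnt ligands are secreted lipid-modified glycoproteins that bind a Frizzled receptor together with Lrp5 or Lrp6, which keeps beta-catenin from being degraded and lets it act with Lef1 and the Tcf factors on target genes such as Axin2. Ligands such as Wnt5a and Wnt11 often act without beta-catenin, through cell polarity and calcium signalling. Secreted Frizzled-related proteins (Sfrp1, Sfrp2, Sfrp4, Sfrp5 and Frzb) and Wif1 bind the ligands themselves, while Dickkopf proteins such as Dkk1 bind the co-receptors. In the fetal mouse gonad, Wnt4 and Rspo1 signal through beta-catenin to promote ovarian development, and this pathway is held down in the developing testis.

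All samples were gonads of male mouse embryos of the MCH line with the genotype Cyp26b1-/-, taken at E12.5, E13.5 or E14.5. The Cyp26b1 enzyme, a cytochrome P450, degrades retinoic acid, so the 3 stages share the loss of that enzyme, and arrays of a control genotype were not analysed here. Each stage was measured on 2 one-colour Agilent arrays that the series calls biological duplicates, named array 1 and array 2 below. How many embryos entered each array, and whether they were littermates, is not given in the sources used here. In dissected gonads, which hold several cell types, fewer cells of a type and less RNA per cell cannot be told apart. The 8 Sertoli cell markers examined were well above background on all 6 arrays.

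A level below is the log2 signal of a gene's brightest probe minus the 75th percentile of its array, so 0 is the level of a fairly bright probe and levels of different genes are not comparable. A change is the difference of 2 stage means of such levels ± SE from limma, with 2 arrays a stage. It is called at a Benjamini-Hochberg adjusted p under 0.05 over all 13420 genes tested. Between 65.3% and 70.1% of the probes of an array passed as well above background, with 0 saturated spots. Across genes, duplicate arrays correlated at r of 0.993 to 0.996. Both E12.5 arrays lay on one slide and the 4 later arrays on another, so that stage and slide cannot be told apart in any comparison with E12.5, and the step to E14.5 from E13.5 is the only one measured within a slide. With 2 arrays a stage, p-values rest on the spread between duplicate arrays, pooled over the 3 stages and drawn towards that of all genes.

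Between E14.5 and E12.5 the secreted inhibitors that were called were all higher, and most of the ligands that were called were lower. Of 9 inhibitors tested, 6 were higher at E14.5 (Frzb, Sfrp4, Dkk3, Wif1, Sfrp1 and Sfrp2) and 0 were lower. Of 13 ligands, 5 were lower (Wnt3, Wnt3a, Wnt5a, Wnt9a and Wnt11) and 2 were higher (Wnt2 and Wnt7a). A gene was tested if both arrays of 1 or more stages were well above background. Wnt3a met this only at E12.5, where it was highest, and Wnt7a only at E13.5 and E14.5. The inclusion of Wnt3a and Wnt7a was thus not independent of the direction called. Of 9 Frizzled receptors only Fzd7 was called, lower, and of the co-receptors Lrp5 was called, higher. Neither Axin2 nor Lef1 was called. In all, 15 of the 35 genes were called (42.9%), 9 higher and 6 lower, where 46.8% of all 13420 genes were called, 25.5% higher and 21.2% lower. The share of the Wnt genes called is thus near that of all genes. Their median change was -0.04, against 0.03 over all genes, with medians of 0.72 for the inhibitors, -0.17 for the ligands and -0.04 for the Frizzled receptors. With a 2-fold minimum added, 7 genes remained called, Frzb, Sfrp4, Dkk3 and Wnt7a higher and Wnt3, Wnt3a and Fzd7 lower.

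**Figure D1:**
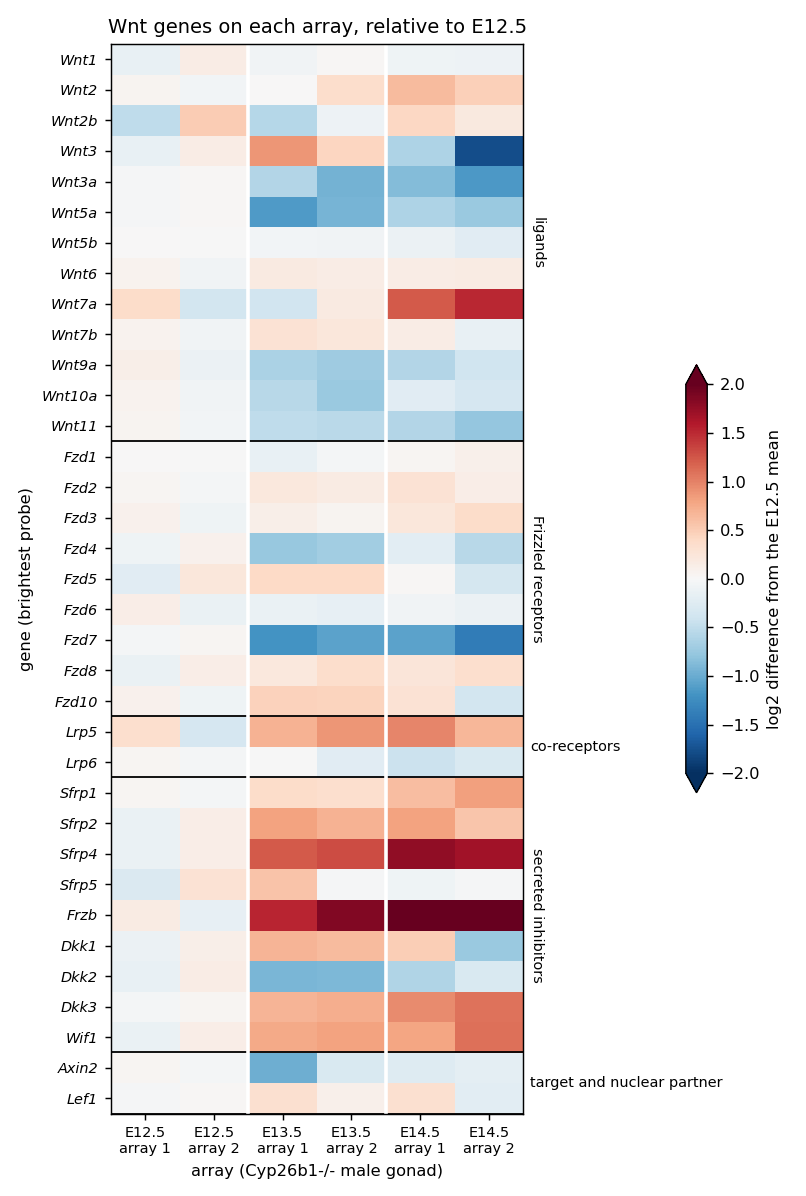
Levels of the 35 tested Wnt genes on the 6 arrays, each as the log2 difference from the gene's mean over the 2 E12.5 arrays, grouped by role (red higher, blue lower, colours ending at 2 in either direction). Frzb and Sfrp4 are the darkest red at E14.5 and Fzd7 is blue on all 4 later arrays, and the 2 E12.5 arrays share a slide that no later array lies on.

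**Figure D2:**
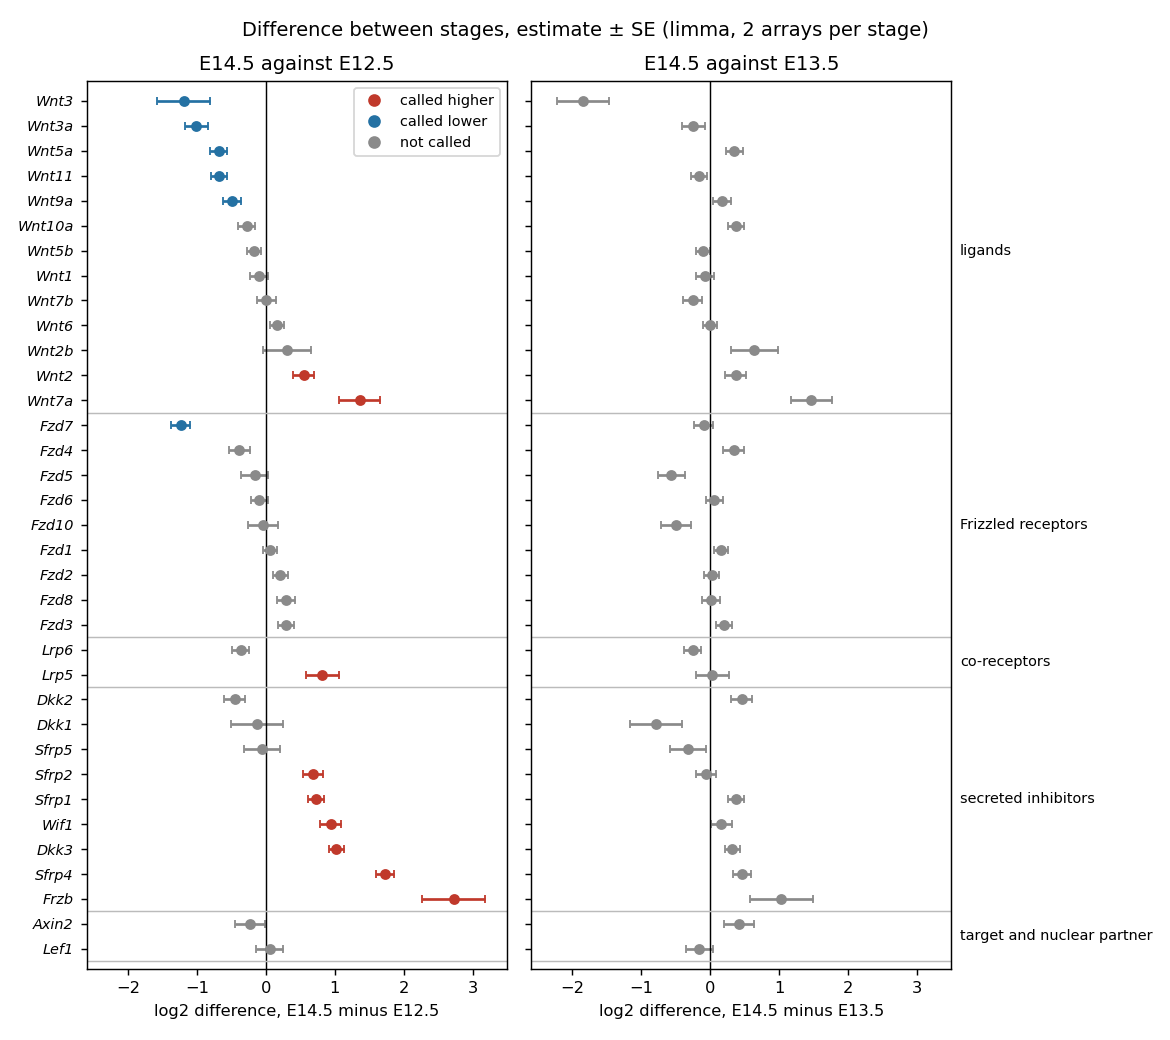
Log2 change of each of the 35 genes for E14.5 against E12.5 (left) and within the later slide, for E14.5 against E13.5 (right), with bars of 1 SE from limma (2 arrays a stage). Genes called higher are red, genes called lower blue and others grey. On the left Frzb lies highest at 2.72 and Fzd7 lowest at -1.24, and on the right all 35 points are grey.

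Among the ligands, Wnt5a and Wnt11, both known for signalling without beta-catenin, fell. Wnt5a levels were -1.43 and -1.40 on the E12.5 arrays, -2.55 and -2.35 on those of E13.5, and -2.04 and -2.16 on those of E14.5. Every later array lay below both E12.5 arrays, and the E14.5 arrays lay above the E13.5 arrays. Wnt5a was 1.61-fold lower at E14.5 than at E12.5, at -0.69 ± 0.12 (adjusted p = 0.00646), and 2.05-fold lower at E13.5, at -1.04 ± 0.12 (adjusted p = 0.00396). Wnt11, which in the mouse kidney marks the tips of the branching ureteric bud, was at -0.06 and -0.18 on the E12.5 arrays, -0.63 and -0.65 on those of E13.5, and -0.70 and -0.90 on those of E14.5. It was 1.60-fold lower at E14.5 (-0.68 ± 0.12, adjusted p = 0.00644) and 1.43-fold lower at E13.5 (-0.52 ± 0.12, adjusted p = 0.023), again with no overlap with E12.5. The call of Wnt11 at E13.5 was lost on leaving out any single array of E13.5 or E12.5, at adjusted p of 0.0556 to 0.123. The E14.5 calls of Wnt5a and Wnt11 held without any one array.

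Wnt3a and Wnt9a were also lower at both later stages. Wnt3a, which drives formation of the embryo's trunk and tail, was dim, well above background on both E12.5 arrays, 1 E13.5 array and 1 E14.5 array. Its levels were -5.36 and -5.31 on the E12.5 arrays, -5.92 and -6.28 on those of E13.5, and -6.20 and -6.49 on those of E14.5. Wnt3a was at -1.01 ± 0.16 (adjusted p = 0.00544) for E14.5 against E12.5 and -0.76 ± 0.16 (adjusted p = 0.0199) for E13.5 against E12.5. With normexp background correction these values turned to 0.20 and 0.079, neither called, so the direction of Wnt3a rests on how the background was treated. Its E13.5 call was also lost without E12.5 array 1 (adjusted p = 0.0729) or 2 (0.0809) or E13.5 array 2 (0.109), with quantile normalization (0.0596) and with a trended prior (0.0933). Wnt9a, a ligand of joint formation in the limb, stood at -1.50 and -1.73 on the E12.5 arrays, -2.24 and -2.32 on those of E13.5, and -2.20 and -2.01 on those of E14.5. The E14.5 and E12.5 arrays of Wnt9a did not overlap, and the fall was 0.50 ± 0.13 (adjusted p = 0.0244) at E14.5 and 0.67 ± 0.13 (adjusted p = 0.0153) at E13.5. The E14.5 call was lost without E12.5 array 1 (-0.38, adjusted p = 0.0959), E14.5 array 1 (-0.40, 0.105) or E13.5 array 2 (-0.50, 0.0516). The E13.5 call was lost without E12.5 array 1 (0.0629), or E13.5 array 1 (0.0602) or 2 (0.0954).

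Wnt10a, known for its part in teeth and hair follicles, was called lower at E13.5. Its levels were -2.85 and -2.98 on the E12.5 arrays, -3.47 and -3.66 on those of E13.5, and -3.14 and -3.25 on those of E14.5. Both E13.5 arrays lay below every other array. The fall at E13.5 was 0.65 ± 0.12 (adjusted p = 0.0134), lost without E12.5 array 1 (adjusted p = 0.0595) or E13.5 array 2 (0.0909). E14.5 against E12.5 was at -0.28 ± 0.12 (adjusted p = 0.104), not called, and that the changes at E13.5 and E14.5 differ was tested by E14.5 against E13.5, at 0.37 ± 0.12 (adjusted p = 0.206), also not called. Wnt3, needed for gastrulation and limb outgrowth, was at -0.69 and -0.39 on the E12.5 arrays, 0.34 and -0.12 on those of E13.5, and -1.16 and -2.31 on those of E14.5. The E13.5 arrays were the highest and the E14.5 arrays the lowest, and the E14.5 duplicates lay 1.15 apart. Wnt3 was 2.29-fold lower at E14.5 than at E12.5, at -1.19 ± 0.38 (adjusted p = 0.0449). That value was -0.62 without E14.5 array 2 (adjusted p = 0.122) and -1.77 without array 1, where the call held. The call was also lost without E12.5 array 1 (0.104) or 2 (0.181) and without E13.5 array 1 (0.0573) or 2 (0.0648), with no background filter (0.0862) and with a trended prior (0.0601). The second probe of Wnt3 moved alike, with -1.10 for E14.5 against E12.5.

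The ligands Wnt2 and Wnt7a were higher at E14.5. Wnt2, a ligand of lung and placental development, was at -2.44 and -2.56 on the E12.5 arrays, -2.49 and -2.15 on those of E13.5, and -1.87 and -2.03 on those of E14.5. Both E14.5 arrays lay above the other 4. The rise over E12.5 was 0.55 ± 0.15 (adjusted p = 0.0267), and this call was lost on leaving out any single array of E14.5 or E12.5, at adjusted p of 0.0654 to 0.112, with median scaling (0.40, 0.0662) and with no background filter (0.0528). Wnt7a, expressed in Müllerian duct epithelium in mouse embryos, where it is needed for duct regression in males, was well above background on 0 of 2 E12.5 arrays and on both arrays of each later stage. Wnt7a levels were -5.88 and -6.61 on the E12.5 arrays, -6.63 and -6.07 on those of E13.5, and -5.02 and -4.74 on those of E14.5. The E14.5 arrays were the highest and the E12.5 and E13.5 arrays overlapped. Wnt7a was at least 2.21-fold higher at E14.5 than at E12.5 by the stage means. For this bound each E12.5 array took the higher of Wnt7a's own signal and the lowest signal that passed as above background. The measured change was 1.36 ± 0.30 (adjusted p = 0.0134), and the bound itself was not tested. Placing Wnt7a at its bound left the medians above as they were. Its call was lost without E12.5 array 2 (1.0, adjusted p = 0.057) or E14.5 array 2 (1.22, 0.0718).

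The other 5 ligands tested were called in none of the 3 comparisons. Wnt6, which in mouse embryos acts in somites and kidney, was at 4.46 and 4.33 on the E12.5 arrays, 4.57 and 4.54 on those of E13.5, and 4.55 and 4.57 on those of E14.5. Wnt5b, the closest relative of Wnt5a, was at 1.37 and 1.34 on the E12.5 arrays, 1.31 and 1.28 on those of E13.5, and 1.25 and 1.13 on those of E14.5. The 6 arrays of Wnt6 lay within a range of 0.25, as did those of Wnt5b. With normexp background correction Wnt6 was called higher at E14.5 than at E12.5 (0.38, adjusted p = 0.0193) and at E13.5 (0.36, 0.0334). Wnt7b was at -3.79 and -3.94 on the E12.5 arrays, -3.57 and -3.64 on those of E13.5, and -3.71 and -4.01 on those of E14.5. Wnt1 was at -5.88 and -5.59 on the E12.5 arrays, -5.80 and -5.72 on those of E13.5, and -5.83 and -5.84 on those of E14.5, and these dim signals spanned 0.28. Wnt2b was at -5.29 and -4.27 on the E12.5 arrays, -5.34 and -4.88 on those of E13.5, and -4.37 and -4.58 on those of E14.5, where the E12.5 duplicates lay 1.02 apart, the widest gap of any Wnt gene at that stage. Wnt8a, Wnt8b and Wnt10b were well above background on 0 arrays and Wnt16 on 1, so these 4 ligands were not tested.

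**Figure D3:**
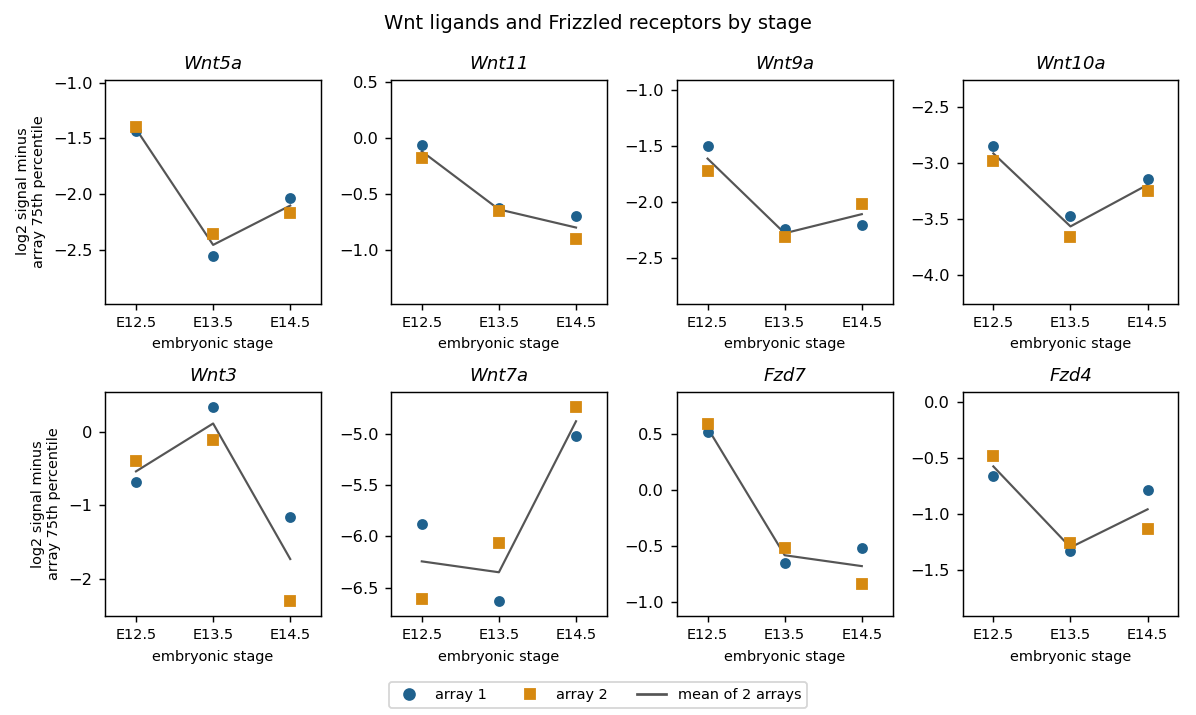
Levels (log2 signal over the array's 75th percentile) of 6 ligands and 2 Frizzled receptors, one point per array with a line through the stage means, each gene on its own axis. Wnt5a, Wnt11 and Fzd7 lie lower on every later array than on the E12.5 arrays, and Wnt7a is highest on the E14.5 arrays.

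Fzd7 fell most among the Frizzled genes, which encode the membrane receptors of the ligands. Its levels were 0.52 and 0.59 on the E12.5 arrays, -0.65 and -0.52 on those of E13.5, and -0.52 and -0.84 on those of E14.5. All 4 later arrays were negative and both E12.5 arrays positive. Fzd7 was 2.35-fold lower at E14.5, at -1.24 ± 0.14 (adjusted p = 0.00193), and 2.20-fold lower at E13.5, at -1.14 ± 0.14 (adjusted p = 0.00472). Both calls held under every alternative tried. The second Fzd7 probe, a dimmer one, changed by -0.57 for E14.5 against E12.5, less than its duplicates lay apart at E13.5, and the mean of both probes was -0.90, still called. For E13.5 against E12.5 the second probe changed by -0.34, and its E13.5 array 2 (-2.41) lay between its E12.5 arrays (-2.33 and -2.45).

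Fzd4, a receptor for Wnt ligands and for the unrelated ligand Norrin in retinal vessels, was at -0.66 and -0.49 on the E12.5 arrays, -1.33 and -1.26 on those of E13.5, and -0.78 and -1.13 on those of E14.5. The E13.5 arrays were the lowest, and the fall there was 0.72 ± 0.15 (adjusted p = 0.018), a call lost on leaving out any single array of E13.5 or E12.5, at adjusted p of 0.051 to 0.0853. At E14.5 Fzd4 stood at -0.38 ± 0.15 (adjusted p = 0.0802) against E12.5, not called, and it was called without E14.5 array 1 (-0.56, 0.0414), with normexp (-0.46, 0.0263), with median scaling (-0.53, 0.0437) and with a trended prior (0.0491). Fzd1 and Fzd2, which with Fzd7 form a closely related group, were called in no comparison. Fzd1 was at 1.12 and 1.10 on the E12.5 arrays, 0.96 and 1.07 on those of E13.5, and 1.15 and 1.21 on those of E14.5. Fzd2 was at 2.25 and 2.16 on the E12.5 arrays, 2.42 and 2.37 on those of E13.5, and 2.49 and 2.35 on those of E14.5. Their changes were 0.07 ± 0.10 (adjusted p = 0.615) and 0.21 ± 0.11 (adjusted p = 0.161) for E14.5 against E12.5.

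The other 5 Frizzled genes tested were not called either. Fzd3, which guides growing axons, was at -1.23 and -1.39 on the E12.5 arrays, -1.19 and -1.25 on those of E13.5, and -1.09 and -0.95 on those of E14.5. Fzd6, which patterns hair in the skin, was at -1.16 and -1.43 on the E12.5 arrays, -1.43 and -1.47 on those of E13.5, and -1.36 and -1.41 on those of E14.5. Fzd8 was at -2.43 and -2.17 on the E12.5 arrays, -2.09 and -1.95 on those of E13.5, and -2.06 and -1.96 on those of E14.5. These 3 genes moved by no more than 0.29 in either direction between E14.5 and E12.5. Fzd5 was at -2.95 and -2.50 on the E12.5 arrays, -2.32 and -2.32 on those of E13.5, and -2.70 and -3.07 on those of E14.5 on its brightest probe, highest at E13.5. Its other probe was lower on all later arrays, with -0.95 for E13.5 against E12.5 where the brightest probe was at 0.40, and the mean of both probes was called for E14.5 against E12.5 (-0.53, adjusted p = 0.0095). Fzd10 was at -0.22 and -0.40 on the E12.5 arrays, 0.15 and 0.14 on those of E13.5, and -0.02 and -0.68 on those of E14.5. E14.5 array 2 lay below every other array. With E14.5 array 1 or array 2 left out, Fzd10 was called higher at E13.5 than at E12.5 (0.46, adjusted p = 0.0471 and 0.0479), while its second probe was at -0.16. Fzd9 was matched to no probe and was not analysed here.

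The co-receptors Lrp5 and Lrp6, single-pass membrane proteins that a Frizzled receptor joins on ligand binding, took opposite signs. Lrp5 was at 0.15 and -0.51 on the E12.5 arrays, 0.51 and 0.71 on those of E13.5, and 0.79 and 0.48 on those of E14.5. All later arrays were above both E12.5 arrays, whose duplicates lay 0.66 apart. Lrp5 was 1.76-fold higher at E14.5 than at E12.5, at 0.82 ± 0.24 (adjusted p = 0.0349), and at 0.79 ± 0.24 (adjusted p = 0.0514) for E13.5 against E12.5, not called. The E14.5 call was lost without E12.5 array 2 (0.49, adjusted p = 0.113), E13.5 array 1 (0.0525), E13.5 array 2 (0.0589), E14.5 array 1 (0.143) or E14.5 array 2 (0.069), and with no background filter (0.0691). At E13.5 Lrp5 was called as well without E12.5 array 1 (1.12, 0.0298), with normexp (0.00871), with median scaling (0.0481), with the filter on all 6 arrays (0.0328) and with a trended prior (0.0284). Lrp6 was at -2.60 and -2.67 on the E12.5 arrays, -2.64 and -2.85 on those of E13.5, and -3.06 and -2.94 on those of E14.5. Its change for E14.5 against E12.5 was -0.36 ± 0.12 (adjusted p = 0.0517), not called, and it was called with median scaling (-0.51, adjusted p = 0.0374), with quantile normalization (-0.49, 0.0316) and with the filter on all 6 arrays (0.0428).

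Among the secreted inhibitors, Frzb (secreted Frizzled-related protein 3, first known from cartilage) rose most. Its levels were -2.04 and -2.35 on the E12.5 arrays, -0.67 and -0.34 on those of E13.5, and -0.20 and 1.26 on those of E14.5. Each later array exceeded both E12.5 arrays, and the E14.5 duplicates lay 1.46 apart, the widest gap among the Wnt genes at that stage. Frzb was 6.61-fold higher at E14.5 than at E12.5, at 2.72 ± 0.45 (adjusted p = 0.00577). The rise was 2.0 without E14.5 array 2 and 3.45 without array 1, and the call held under every alternative. At E13.5 Frzb was 3.23-fold higher than at E12.5, at 1.69 ± 0.45 (adjusted p = 0.0361), a call lost on leaving out any single array of E13.5 or E12.5, at adjusted p of 0.0884 to 0.160, with no background filter (0.0744) and with a trended prior (0.0637).

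Sfrp4, another Frizzled-related decoy for Wnt ligands, was at -3.06 and -2.79 on the E12.5 arrays, -1.70 and -1.62 on those of E13.5, and -1.15 and -1.25 on those of E14.5. The 3 stages did not overlap and stood in order of age. Sfrp4 was 3.31-fold higher at E14.5 (1.73 ± 0.13, adjusted p = 0.000732) and 2.40-fold higher at E13.5 (1.26 ± 0.13, adjusted p = 0.00318) than at E12.5, and both calls held under every alternative. Dkk3, a divergent member of the Dickkopf family, was at -2.19 and -2.12 on the E12.5 arrays, -1.48 and -1.43 on those of E13.5, and -1.21 and -1.06 on those of E14.5. Its stages also stood in order without overlap, with a rise of 1.02 ± 0.11 (adjusted p = 0.00157) at E14.5 and 0.70 ± 0.11 (adjusted p = 0.00805) at E13.5. The E13.5 call of Dkk3 was lost without E13.5 array 2 (0.67, adjusted p = 0.0629).

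Sfrp1 and Sfrp2, which act redundantly in mouse embryos and together are needed for normal male gonad development, both rose. Sfrp1 was at 3.16 and 3.06 on the E12.5 arrays, 3.48 and 3.45 on those of E13.5, and 3.73 and 3.94 on those of E14.5. Again the stages stood in order without overlap, and the rise at E14.5 was 1.65-fold, at 0.72 ± 0.12 (adjusted p = 0.00535). The second Sfrp1 probe moved further, by 1.40. For E13.5 against E12.5 Sfrp1 was at 0.35 ± 0.12 (adjusted p = 0.065), not called, and was called with its 2 probes averaged (0.69, adjusted p = 0.0187), with normexp (0.0497) and with a trended prior (0.0326). Sfrp2 was at 0.33 and 0.60 on the E12.5 arrays, 1.27 and 1.16 on those of E13.5, and 1.27 and 1.02 on those of E14.5. It was higher on every later array than at E12.5, with no order between E13.5 and E14.5. The rise of Sfrp2 was 0.68 ± 0.15 (adjusted p = 0.0131) at E14.5 and 0.75 ± 0.15 (adjusted p = 0.0155) at E13.5. Its E14.5 call was lost without E12.5 array 1 (adjusted p = 0.0569), without E14.5 array 1 (0.0592) and with median scaling (0.0509). The E13.5 call was lost without E12.5 array 1 (0.065) or E13.5 array 1 (0.0761) or 2 (0.072).

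Wif1, Wnt inhibitory factor 1, which binds ligands through a domain unlike that of the Frizzled-related proteins, was at -2.87 and -2.60 on the E12.5 arrays, -1.98 and -1.92 on those of E13.5, and -1.94 and -1.64 on those of E14.5. All later arrays exceeded both E12.5 arrays. Wif1 rose by 0.94 ± 0.15 (adjusted p = 0.00544) at E14.5 and by 0.78 ± 0.15 (adjusted p = 0.0154) at E13.5, where the call was lost without E12.5 array 1 (0.65, adjusted p = 0.0663) or E13.5 array 1 (0.81, 0.0614) or 2 (0.76, 0.0909). Dkk2 went the other way at E13.5. Its levels were -3.64 and -3.35 on the E12.5 arrays, -4.41 and -4.39 on those of E13.5, and -4.09 and -3.79 on those of E14.5, with the E13.5 arrays lowest, and the fall there was 0.90 ± 0.15 (adjusted p = 0.0106), lost without E13.5 array 1 (adjusted p = 0.0507) or 2 (0.0651). At E14.5 Dkk2 was at -0.45 ± 0.15 (adjusted p = 0.0563) against E12.5, not called, and it was called with quantile normalization (-0.60, 0.0263), with median scaling (-0.60, 0.0262), with the filter on all 6 arrays (0.0422) and with a replicate block (0.0404).

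Dkk1, the best known blocker of Lrp5 and Lrp6, was at -0.36 and -0.12 on the E12.5 arrays, 0.44 and 0.40 on those of E13.5, and 0.25 and -0.99 on those of E14.5. It was high on both E13.5 arrays and E14.5 array 1 and lowest on E14.5 array 2, so that the E14.5 arrays lay on either side of the E12.5 arrays. Its second probe had the same shape, at -1.23 and -2.55 at E14.5. Dkk1 was at -0.13 ± 0.38 (adjusted p = 0.805) for E14.5 against E12.5, and without E14.5 array 1 it was called lower (-0.75, 0.0242). For E13.5 against E12.5 it stood at 0.66 ± 0.38 (adjusted p = 0.224), not called, and it was called higher without E14.5 array 1 (0.66, 0.0248) or 2 (0.66, 0.0257) and with normexp (0.80, 0.0473). Sfrp5 was at -5.80 and -5.22 on the E12.5 arrays, -4.95 and -5.54 on those of E13.5, and -5.59 and -5.54 on those of E14.5 and was not called. Dkk4 was well above background on 1 array and was not tested.

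**Figure D4:**
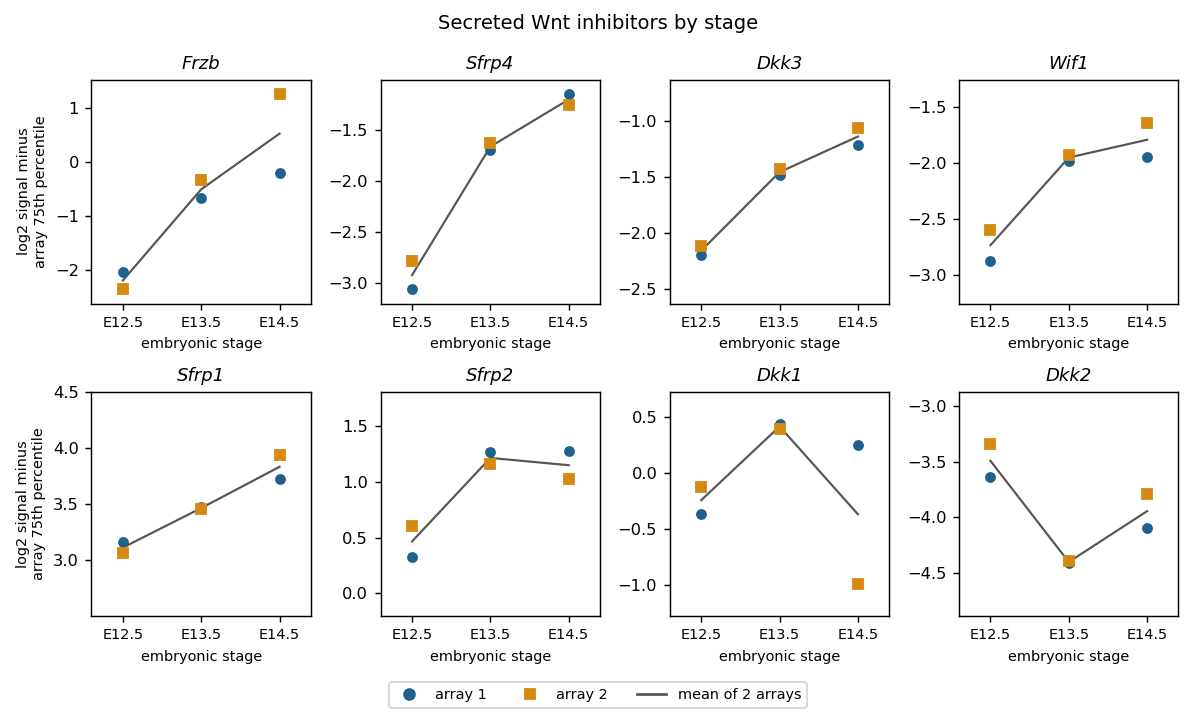
Levels (log2 signal over the array's 75th percentile) of 8 of the 9 secreted inhibitors tested (all but Sfrp5), one point per array with a line through the stage means, each gene on its own axis. Frzb, Sfrp4, Dkk3 and Sfrp1 stand in order of age without overlap, Frzb spreads widely at E14.5, and Dkk1 has one E14.5 array below all others.

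Axin2, a feedback inhibitor that beta-catenin signalling switches on in many tissues, was at -1.31 and -1.40 on the E12.5 arrays, -2.34 and -1.66 on those of E13.5, and -1.61 and -1.55 on those of E14.5. E13.5 array 1 was the lowest and every later array lay below both E12.5 arrays. Axin2 was at -0.64 ± 0.22 (adjusted p = 0.0726) for E13.5 against E12.5 and -0.23 ± 0.22 (adjusted p = 0.433) for E14.5 against E12.5, and neither was called. The E13.5 change was called without E13.5 array 2 (-0.98, adjusted p = 0.0296), with normexp (0.0254), with quantile normalization (0.0477), with median scaling (0.0324) and with a trended prior (0.035). Lef1, the nuclear partner of beta-catenin, was at -1.34 and -1.30 on the E12.5 arrays, -1.0 and -1.22 on those of E13.5, and -1.0 and -1.54 on those of E14.5. Its E14.5 arrays lay on either side of the E12.5 arrays, and the change was 0.05 ± 0.19 (adjusted p = 0.837).

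Promoter windows from RefSeq, 250 bases before to 50 after a transcription start on GRCm38.p6, were found for 27 of the 41 genes, in 33 windows. They were searched on both strands for the Tcf and Lef1 core, CTTTGAA or CTTTGAT, 2 strings that cannot overlap within one site. The core was in 3 of the 33 windows, 1 each of Wnt5b, Wnt11 and Dkk1. That is near the share in all 32851 promoter windows, of which 8.65% hold it (CTTTGAA in 5.14% and CTTTGAT in 3.73%). In 1 Wnt11 window the core begins 51 bases before the start site. The other Wnt11 window, at chr7:98838595-98838894, holds 0 matches and is not printed. The windows of 3 inhibitors that rose (Frzb, Sfrp2 and Wif1) and of Fzd7 and Wnt11, which fell, are printed 5′ to 3′ on the gene's own strand, with the core in capitals. A match describes these letters and was not tested as a binding site. Frzb lies at chr2:80447347-80447646 on the minus strand, Sfrp2 at chr3:83766071-83766370 on the plus strand, Wif1 at chr10:121033754-121034053 on the plus strand, Fzd7 at chr1:59481897-59482196 on the plus strand and Wnt11 at chr7:98834862-98835161 on the plus strand. Their G and C content was 64.7%, 66.0%, 63.0%, 66.7% and 71.3% in that order.
Frzb: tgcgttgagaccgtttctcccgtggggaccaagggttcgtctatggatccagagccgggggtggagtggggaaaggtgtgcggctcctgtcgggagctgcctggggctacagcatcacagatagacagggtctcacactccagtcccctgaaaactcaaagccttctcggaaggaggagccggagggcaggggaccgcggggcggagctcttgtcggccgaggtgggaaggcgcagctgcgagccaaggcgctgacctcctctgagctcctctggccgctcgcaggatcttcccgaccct
Sfrp2: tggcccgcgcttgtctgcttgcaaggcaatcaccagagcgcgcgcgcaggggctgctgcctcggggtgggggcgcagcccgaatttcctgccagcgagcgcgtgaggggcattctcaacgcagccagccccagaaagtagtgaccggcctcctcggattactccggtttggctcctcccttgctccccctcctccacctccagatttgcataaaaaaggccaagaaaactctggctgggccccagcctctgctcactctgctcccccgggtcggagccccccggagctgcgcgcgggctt
Wif1: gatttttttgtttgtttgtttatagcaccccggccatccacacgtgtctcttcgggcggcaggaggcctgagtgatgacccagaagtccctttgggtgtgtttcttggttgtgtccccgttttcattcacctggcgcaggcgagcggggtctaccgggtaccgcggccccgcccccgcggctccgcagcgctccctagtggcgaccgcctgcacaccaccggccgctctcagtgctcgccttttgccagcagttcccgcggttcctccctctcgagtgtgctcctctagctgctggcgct
Fzd7: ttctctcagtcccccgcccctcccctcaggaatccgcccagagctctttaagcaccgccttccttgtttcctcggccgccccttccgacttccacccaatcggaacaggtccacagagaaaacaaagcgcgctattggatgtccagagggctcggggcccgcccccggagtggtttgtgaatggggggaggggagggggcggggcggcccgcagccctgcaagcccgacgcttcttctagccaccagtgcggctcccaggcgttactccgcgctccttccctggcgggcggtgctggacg
Wnt11: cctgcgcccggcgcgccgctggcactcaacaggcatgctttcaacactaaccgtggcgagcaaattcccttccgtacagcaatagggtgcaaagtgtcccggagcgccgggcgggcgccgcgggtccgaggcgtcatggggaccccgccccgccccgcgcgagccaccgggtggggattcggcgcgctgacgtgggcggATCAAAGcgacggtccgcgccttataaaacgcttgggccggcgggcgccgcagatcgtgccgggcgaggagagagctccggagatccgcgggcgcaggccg

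Within the later slide, E14.5 against E13.5, 0 of the 35 Wnt genes were called by limma, where 7 of 13420 genes were (0.0522%). At an unadjusted p under 0.05 there were 10 of the 35 Wnt genes, and 2481 of all 13420 genes (18.5%). The 10 were Wnt2, Wnt3, Wnt5a, Wnt7a, Wnt10a, Fzd5, Sfrp1, Sfrp4, Dkk2 and Dkk3. The lowest adjusted p was 0.104, for Wnt3 and Wnt7a. Wnt3 was at -1.85 ± 0.38 and Wnt7a at 1.47 ± 0.30, and the arrays of the 2 stages overlapped for neither gene. Wnt3 was called lower without E14.5 array 1 (-2.42, adjusted p = 0.0443) and with normexp (-1.59, 0.0136). Dkk1, at -0.78 ± 0.38 (adjusted p = 0.331), was called lower without E14.5 array 1 (-1.41, 0.0475). Of the inhibitors that rose against E12.5, Frzb was at 1.03 ± 0.45 (adjusted p = 0.291), Sfrp4 at 0.46 ± 0.13 (adjusted p = 0.165), Dkk3 at 0.32 ± 0.11 (adjusted p = 0.218), Sfrp1 at 0.37 ± 0.12 (adjusted p = 0.2), Wif1 at 0.16 ± 0.15 (adjusted p = 0.616) and Sfrp2 at -0.07 ± 0.15 (adjusted p = 0.846). Wnt5a was at 0.35 ± 0.12 (adjusted p = 0.216) and Fzd7 at -0.10 ± 0.14 (adjusted p = 0.746).

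For E13.5 against E12.5, 13 of the 35 genes were called (37.1%), where 32.1% of all genes were (18.0% higher and 14.0% lower). Of the inhibitors, 5 were higher (Frzb, Sfrp4, Wif1, Sfrp2 and Dkk3) and 1 was lower (Dkk2), with a median of 0.70 over the 9. The ligands had 0 higher and 5 lower (Wnt5a, Wnt3a, Wnt9a, Wnt10a and Wnt11), and the Frizzled receptors 0 higher and 2 lower (Fzd7 and Fzd4). Over all 35 genes the median was 0.16, against 0.04 over all genes tested. Both comparisons with E12.5 share its 2 arrays and their slide, so that they do not support each other. Without E13.5 array 2 the number of Wnt genes called was 4, without array 1 it was 6 and without E12.5 array 1 it was 6.

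Of the 41 genes, 9 had 2 probes. For E14.5 against E12.5 both probes had the same sign in 8 of them, and in Wnt5b the brightest probe was at -0.17 and the other at 0.02. The pairs were -1.19 and -1.10 for Wnt3, -0.50 and -0.98 for Wnt9a, 0.29 and 0.33 for Fzd3, -0.16 and -0.90 for Fzd5, -1.24 and -0.57 for Fzd7, -0.04 and -0.70 for Fzd10, 0.72 and 1.40 for Sfrp1, and -0.13 and -0.18 for Dkk1, with the brightest probe first. The other Wnt9a probe was well above background on 1 array, and with the mean of both probes neither Wnt9a call held (-0.74, adjusted p = 0.206 at E14.5, and -0.91, 0.155 at E13.5). For E13.5 against E12.5 the probes of Fzd5 (0.40 and -0.95) and Fzd10 (0.46 and -0.16) took opposite signs.

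**Figure D5:**
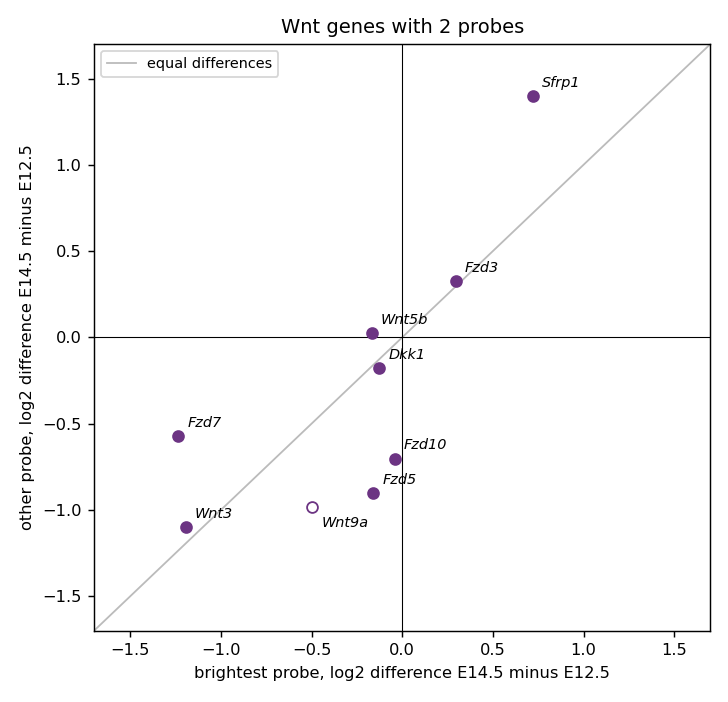
Log2 change for E14.5 against E12.5 in the 9 Wnt genes with 2 probes, the brightest probe on the horizontal axis and the other probe on the vertical axis, with a line of equal differences and an open point where the other probe was well above background on 1 array. The probes of Wnt3, Fzd3 and Dkk1 lie within 0.09 of each other, while those of Fzd5, Fzd7, Fzd10 and Sfrp1 lie 0.66 to 0.74 apart.

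Of 63 other genes of the pathway, 58 were tested. For E14.5 against E12.5, 17 were higher, 8 lower and 33 not called, with a median of 0.03, where 25.5% of all 13420 genes were higher and 21.2% lower. For E13.5 against E12.5, 9 were higher and 8 lower, where 18.0% of all genes were higher and 14.0% lower. For E14.5 against E13.5, 0 were called by limma, where 7 of all genes were. Rspo2, an R-spondin that amplifies Wnt signalling, was well above background on 0 E12.5 arrays and was at least 3.49-fold higher at E14.5. Its measured change was 3.53 ± 0.32 (adjusted p = 0.00101). Rspo2 levels were -8.05 and -7.94 on the E12.5 arrays, -6.25 and -5.87 on those of E13.5, and -4.95 and -3.98 on those of E14.5. Lgr6, an R-spondin receptor, was likewise at least 3.43-fold higher, with a measured change of 2.06 ± 0.31 (adjusted p = 0.00428). Lgr5, its relative, fell by 1.37 ± 0.12 (adjusted p = 0.000883). Sostdc1, a secreted antagonist of Wnt and BMP signals, was 4.04-fold higher, at 2.01 ± 0.16 (adjusted p = 0.000751). Rspo2 and Lgr6 passed the background filter only at E13.5 and E14.5, and Rspo4 only at E14.5. The inclusion of these 3 genes was thus not independent of their rises. Rspo4, above background on 1 E12.5 array, rose by 1.87 ± 0.60 (adjusted p = 0.0447), and the call did not hold without E14.5 array 1 (0.117) or 2 (0.154) or E13.5 array 1 (0.0639) or 2 (0.0717), or with no background filter (0.0867). Its rise was 2.86 without E12.5 array 1 and 0.88 without E12.5 array 2, called both times.

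Among the other falls of that list, Ptk7, a Wnt co-receptor of cell polarity, fell by 1.07 ± 0.15 (adjusted p = 0.00322) and Apc, part of the complex that degrades beta-catenin, fell by 0.84 ± 0.11 (adjusted p = 0.00319). Celsr3, a polarity cadherin, was above background on 1 of 2 E14.5 arrays, at -0.96 ± 0.28 (adjusted p = 0.0341), a call that did not hold once any single array of these stages was left out (0.0858 to 0.137) and with normexp (-0.07, 0.707). Wnt4 levels were 0.62 and 0.81 on the E12.5 arrays, 1.07 and 1.27 on those of E13.5, and 1.72 and 1.74 on those of E14.5, in order of age without overlap. Wnt4 was 2.02-fold higher at E14.5 than at E12.5, at 1.01 ± 0.12 (adjusted p = 0.00235), and this call held without any one array. Ctnnb1, which encodes beta-catenin, was at -0.20 ± 0.11 (adjusted p = 0.172) and was not called.

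Markers of several cell types changed over the same stages. Of all 13420 genes, 25.5% were higher and 21.2% lower at E14.5 than at E12.5, and the small counts below are to be read beside these shares. Of 8 peritubular and interstitial markers, 4 rose and 0 fell between E14.5 and E12.5, and their summed linear signal was 43.7 and 45.8 on the E12.5 arrays, 53.5 and 62.7 on those of E13.5, and 73.9 and 82.8 on those of E14.5. Of 6 fetal Leydig markers 4 were tested and all 4 rose, with sums of 2.57 and 3.61, then 34.1 and 40.2, then 60.0 and 80.4 at the 3 stages. These sums climbed with the levels of Frzb, Sfrp4, Dkk3 and Sfrp1. Macrophage sums (1.68 and 1.94, then 2.54 and 2.11, then 3.51 and 4.11) also climbed in stage order. So did neural sums (0.50 and 0.59, then 0.74 and 0.87, then 1.29 and 1.67) and Sertoli sums (121 and 145, then 168 and 167, then 176 and 171). Germ cell, pregranulosa, and Müllerian and surface epithelium sums did not. Of 10 mesonephros and duct markers 9 were tested, of which 5 fell and 1 rose. The duct sums were 2.74 and 2.83, then 1.49 and 1.33, then 1.32 and 0.874. Erythroid markers fell in 4 of 6, with sums of 115 and 151, then 68.8 and 50.7, then 31.8 and 16.5. Endothelial sums were also lower on every later array than on both E12.5 arrays, with no further fall at E14.5. The falls of Wnt11, Wnt9a and Fzd7 thus stood beside falls in the duct, erythroid and endothelial sums alike. Of 7 markers of Müllerian and surface epithelium, Wnt7a among them, 3 rose and 0 fell. Of 8 Sertoli markers 1 rose and 2 fell, Sox9 among the falls (-1.50 ± 0.20, adjusted p = 0.00306). Their median change was -0.02 although their sums climbed, since a linear sum is weighted towards its brightest probes. Of 6 germ cell markers 3 rose, of 5 tested pregranulosa markers 1 rose (Wnt4), of 4 tested macrophage markers 3 rose, of 3 tested neural markers 2 rose, and of 6 endothelial markers 2 fell. The part of these cell types in the Wnt gene changes was not tested.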

How the data were processed

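Per the labels' protocols, total RNA of frozen gonads was column-purified, amplified linearly and labelled with Cy3. Per the file headers and the submitters' processing notes, the scanner files come from Agilent Feature Extraction 9.5 and hold the intensity of each spot after background subtraction, without scaling between arrays. The authors' deposited table holds 1 linear ratio per probe and stage, whose reference, scaling and centring are not stated. Its column medians were 0.963, 1.04 and 1.01, and log2 differences between its columns followed the scanner values at r = 1.0 over 25605 probes above background and at 0.892 to 0.950 over 41153 probes. Those values were used only as an alternative.

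Outlier spots (54 to 83 of 43379 an array) were left out, repeated spots averaged and log2 signals scaled to the 75th percentile. Of 41174 probes, 21 lacked a value on some array and were dropped, and RefSeq accessions named 23366 probes of 16531 genes. The brightest probe stood for a gene, kept if both arrays of 1 or more stages had it well above background. Stages were compared in limma 3.58.1 (R 4.3.3) on all 6 arrays, two-sided, with 3 residual and 2.97 prior degrees of freedom, and the scripts were tested on simulated data. The Wnt genes and all lists were chosen with earlier results of these data known. All tested Wnt genes are named, and of other pathway genes the 4 largest called rises and falls, Wnt4 and Ctnnb1. Alternatives were normexp (offset 50, on spot medians), quantile and median scaling, other filters, the mean of probes, a trended robust prior, a replicate block, a 2-fold minimum, the later slide only and leaving out each array. Figures used matplotlib 3.10.9. The number of arrays limits precision.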

Additional observations from a re-analysis of the deposited data

How the results depend on the processing

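Among single genes named, 1993 of 2156 alternative values kept their side of the threshold, 116 lost the call, 44 gained it and 3 reversed. A change of sign counted as reversed only where the main or the alternative value was called. Some uncalled values among the 1993 changed sign, such as Rspo4 for E13.5 against E12.5 (0.42, and -0.58 without E12.5 array 2). The reversed values all came with normexp background correction: Wnt3a at 0.20 for E14.5 against E12.5 and at 0.079 for E13.5 against E12.5, and Wnt7a at 0.37 for E13.5 against E12.5, where its change was -0.11 and not called. These genes are dim, and the cause was not tested.

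For E14.5 against E12.5, 15 Wnt genes and 6274 of all genes were called, 7 and 1913 with a 2-fold minimum, and 11 to 13 and 3796 to 5407 without one array. For E13.5 against E12.5, 13 and 4302 were called, 4 and 1158 with a 2-fold minimum, 4 to 15 and 1152 to 3849 without one array, and 2860 genes with no background filter. For E14.5 against E13.5 the 7 genes became 389 with normexp, 95 with median scaling, 331 with a trended prior and 1 with a replicate block. They became 0 with no filter, with the filter on all 6 arrays, with the mean of probes and on the 4 later arrays alone, and 0 to 104 without one array. The 0 Wnt genes became 1 with normexp and 0 to 2 without one array. The lone array left in a stage was assumed to vary like the others.

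With a replicate block, 16 Wnt genes were called for E14.5 against E12.5, 13 for E13.5 against E12.5 and 0 for E14.5 against E13.5. Same-numbered arrays deviated from their stage means with correlations of -0.04 for E12.5 and E13.5 and -0.06 for E12.5 and E14.5. The correlation was 0.23 for E13.5 and E14.5, which share a slide. Whether the numbers pair the arrays of those stages cannot be told from these values, and the main fit did not pair them. Median scaling moved the median of all genes for E14.5 against E12.5 to -0.12, in place of 0.03, and the share of calls that were higher to 41.1%, in place of 54.6%. Signal over background limits Wnt1, Wnt2b, Wnt3a, Wnt7a and Sfrp5, and 5 further genes with a probe were too dim to test.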
